A study of Mus musculus with 2 samples.

Results

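The genes followed here encode the proteins of the cytosolic ribosome, and their mRNA was counted in single immune cells taken from B16Ova tumors, a mouse melanoma line that carries ovalbumin. Members were all genes of the deposited matrices whose symbol starts with Rpl or Rps and a digit, plus Rplp0, Rplp1, Rplp2 and Rpsa. Symbols holding "-ps", which mark pseudogenes, and the Rps6k kinases were left out. This gave 87 of 27998 genes, of which 53 carry the name of the large subunit and 34 that of the small subunit. The rule also caught Rps19bp1, whose product binds Rps19 but is no ribosomal protein.

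All animals were female and carried floxed Tcf7 alleles (Tcf7 FL/FL). The wildtype group (WT) had no E8i-cre transgene (E8i-cre-), and the knockout group (KO, called Tcf7 cKO in the labels) carried it (E8i-cre+). The E8i element of CD8a is known to switch the Cre on once CD8 T cells mature, so Tcf7, the gene of the transcription factor TCF1, is targeted in those cells. Whether the Cre had acted in CD4 T cells or myeloid cells was not tested. Tumors grew subcutaneously in the flank and were taken at day 13, and 2000 cells of each of 4 sorted categories (CD8 T cells, CD4 T cells, cells of a gate for dendritic cells, and the remaining CD45+ cells) came from each of 3 tumors a group. The cells of a group were mixed, 7000 were loaded, and each group gave 1 library in which the tumors cannot be told apart. Sorting in equal numbers means that the shares of cell types below are not those of the tumor. There was therefore no replicate, no test between WT and KO was possible, and the intervals below cover counting error only.

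Ribosomal protein mRNAs are among the most abundant of a mammalian cell, and the cell makes their products in equal numbers, since each mature ribosome holds about one copy of each. Most of these mRNAs start with a short run of pyrimidines at the 5′ end, the terminal oligopyrimidine (TOP) motif, through which mTORC1 signalling sets how well they are translated. A count of their mRNA is therefore no count of ribosomes. Naive lymphocytes are small resting cells with little other mRNA, while activated lymphocytes grow and build new ribosomes.

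The WT library held 1120 barcodes with 9283014 unique molecular identifiers (UMIs, each standing for 1 captured mRNA molecule) and the KO library 1219 barcodes with 11758449 UMIs. A barcode had 504 to 48526 UMIs in WT and 505 to 75823 in KO. After filtering, 983 and 1083 cells remained, and 1 barcode sequence occurred in both libraries but was not kept in both. Tcf7 itself had 155 CPM (the UMIs of a gene scaled to the same total in every class, here from 192 UMIs) in WT CD8 T cells and 53.5 CPM (108 UMIs) in KO CD8 T cells. The floxed exons are not named in the labels used here, so these UMIs need not come from an intact gene. Tcf7 is also among the leading genes of the naive-like T cell cluster described below. That cluster gave 15.5% of the CD8 T cell UMIs in WT and 8.95% in KO, and its part in the Tcf7 values was not tested. Members made up 24.7% of all kept UMIs in WT and 24.5% in KO. In the barcodes left out, whose median mitochondrial share was 17.7% and 21.4%, the median member share was 5.23% and 4.22%. Among the kept cells, 17 in WT and 20 in KO were under 5%.

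Of the 87 members, 86 had a UMI in each library and 79 had at least 10000 UMIs over both. Rpl41, the smallest ribosomal protein, led with 148701 UMIs, or 2.94% of all member UMIs. It was followed by Rps24 with 123314 UMIs, Rpl13 with 116499 and Rpsa, also known as the laminin receptor, with 116077. No single gene dominated: these 4 together held 9.98% of the member UMIs. At the other end stood the second copies Rpl6l, Rpl3l and Rpl39l with 66, 21 and 14 UMIs, and Rpl10l, a testis gene, with none. Absence of Rpl10l at this depth allows up to 3 UMIs in a library. These are UMI counts per gene and not counts per length.

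The share of a cell's UMIs that came from members was highest in naive-like T cells and lowest in macrophages and monocytes, in both libraries. The naive-like cluster, led by Lef1, Satb1 and Klf2, had 42.9% in WT (exact binomial 95% interval 42.7 to 43.0, 97 cells) and 43.8% in KO (43.7 to 44.0, 134 cells). The 4 other non-cycling T cell clusters, called effector here as a group, had 28.3% in WT (28.2 to 28.3, 351 cells) and 28.3% in KO (28.3 to 28.4, 322 cells). Naive-like cells thus stood apart from all other T cells, and the summed effector group had nearly the same share in the 2 libraries. Effector is a name by rule and not by markers for the Cd40lg/Il7r and the regulatory T cell clusters. In at least 25% of its cells, the Cd40lg/Il7r cluster had 5 of 7 naive-like markers and 4 of 9 effector markers. By the same count the regulatory T cell cluster had 4 of 9 effector, 1 of 7 naive-like and 4 of 4 regulatory T cell markers. Within the group, the Cd40lg/Il7r cluster had 28.6% and 29.8%, the Gzmk CD8 cluster 28.9% and 26.5%, and the Prf1/Xcl1 cluster 31.9% and 29.8%. By co-receptor UMIs, the Prf1/Xcl1 cluster held 88 CD8 and 24 CD4 T cells over both libraries, and the Gzmk cluster 101 and 3. The mix of clusters differed too: the Prf1/Xcl1 cluster gave 475235 of 1861974 effector UMIs in WT and 1402887 of 2383381 in KO. The near equal group values therefore do not mean that the clusters were equal. Regulatory T cells (Treg, with Foxp3 and Ctla4) were the lowest T cells, at 24.1% in WT and 21.2% in KO. Cycling T cells had 25.7% and 27.6%, above Treg in both libraries and above the Gzmk cluster in KO only.

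**Figure D1:**
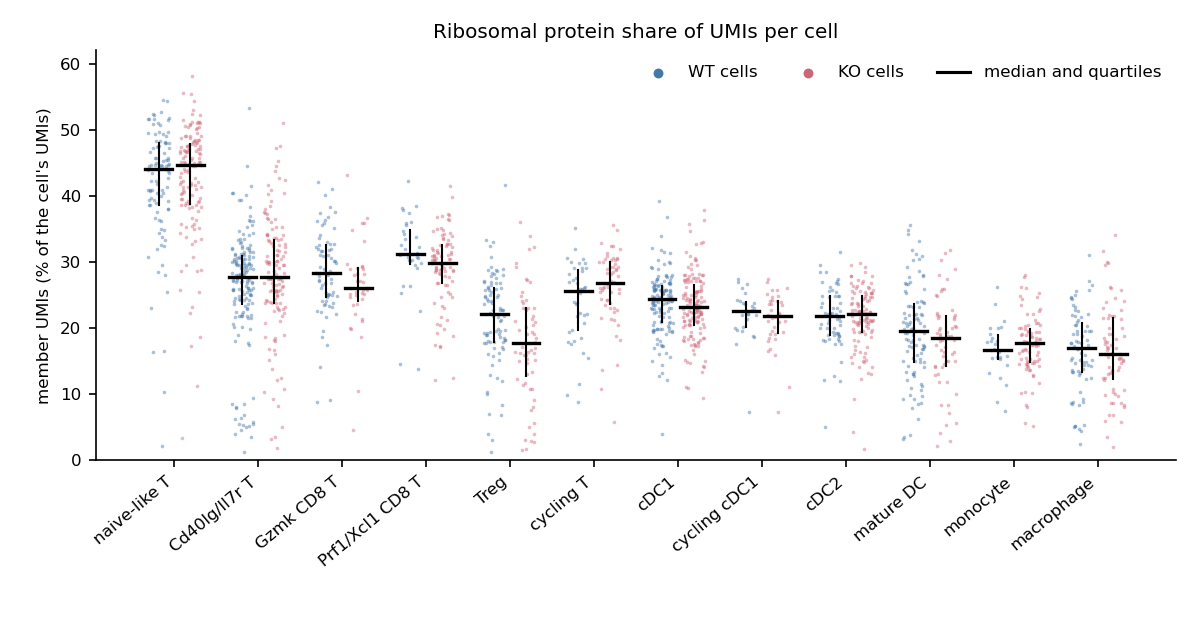
Share of each cell's UMIs that came from the 87 members (vertical axis, percent), by cell class, with WT cells in blue and KO cells in red; each point is 1 cell, and black bars give the median and quartiles. Naive-like T cells (medians 44.0% and 44.7%) lie above every other class in both libraries, and macrophages (17.0% and 16.1%) and monocytes (16.7% and 17.6%) lie lowest.

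Single cells overlapped little between the naive-like and effector groups. The median naive-like cell had 44.0% in WT (quartiles 38.5 and 48.0) and 44.7% in KO (38.8 and 47.9). The median effector cell had 26.9% (22.04 and 30.9) and 27.3% (21.2 and 31.5). Only 2 of 351 WT and 4 of 322 KO effector cells lay above the naive-like median, and 6 of 97 and 8 of 134 naive-like cells lay below the effector median. Of the cells with at least 40% member UMIs, 65 of 86 in WT and 93 of 112 in KO were in the naive-like cluster, and none was a cycling T or myeloid cell. When every cell was thinned to 2000 UMIs, the mean share was 42.9% ± 7.41 (SD, 90 cells) in naive-like and 27.5% ± 6.41 (311 cells) in effector WT cells. The same thinning gave 43.8% ± 6.38 (123 cells) and 27.4% ± 7.40 (289 cells) in KO. At equal depth the gap between these means was thus -15.4 points in WT and -16.4 in KO, beside -15.8 and -16.3 as means over cells without thinning.

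The same order held within each co-receptor lineage. Naive-like CD8 T cells had 43.8% in WT and 44.8% in KO, and effector CD8 T cells 31.2% and 29.9%. Naive-like CD4 T cells had 43.9% and 44.0%, and effector CD4 T cells 25.8% and 26.1%. The gap was thus larger in CD4 T cells, at -18.1 points in WT and -17.9 in KO, than in CD8 T cells, at -12.6 and -14.8. The effector CD4 T cells include the Tregs.

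The lower share of effector cells went with fewer member UMIs and more of all others. A median naive-like cell had 1677 member UMIs and 2022 UMIs of other genes in WT, and 1550.5 and 1925.5 in KO. A median effector cell had 1042 and 2921 in WT and 1196 and 3324.5 in KO. Member UMIs were 0.621 and 0.771 times the naive-like level, and other UMIs 1.44 and 1.73 times. Cycling T cells, led by Top2a, Mki67 and histone genes, were different: they held 2.67 (WT) and 3.60 (KO) times the member UMIs of a naive-like cell and 7.37 and 7.48 times its other UMIs. Cells of the Prf1/Xcl1 cluster were also large, with 4442 and 4567 member UMIs and 8490 and 10165 others. Effector CD8 T cells, most of them of the Gzmk and Prf1/Xcl1 clusters, had 0.755 times the member UMIs of naive-like CD8 T cells in WT and 1.34 times in KO. So a lower share in the large cells stood beside a higher number of member molecules captured per cell.

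**Figure D2:**
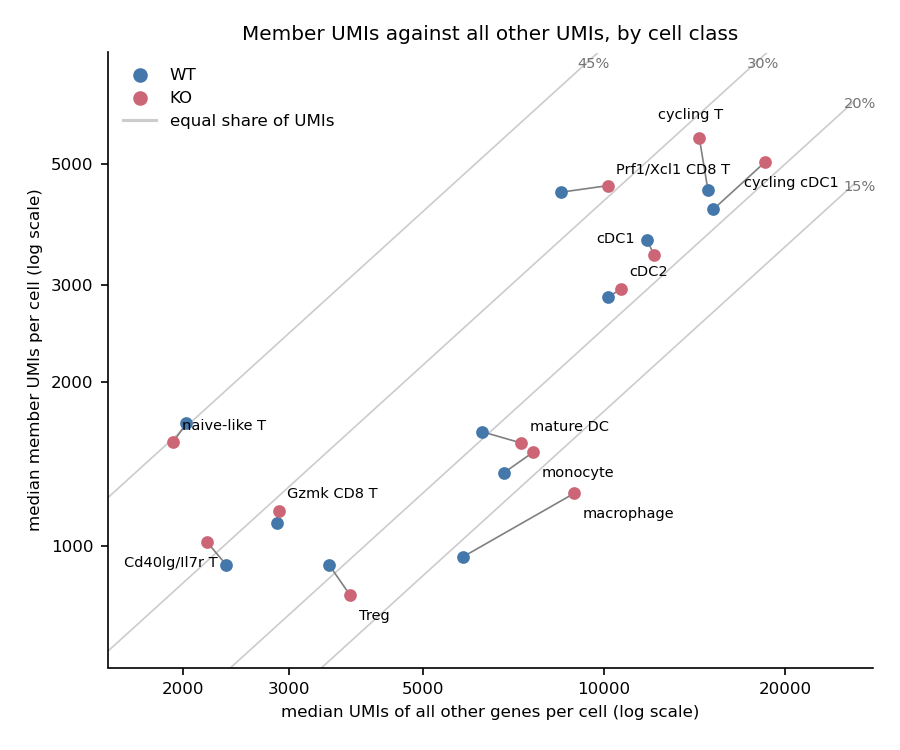
Median member UMIs per cell (vertical axis, log scale) against median UMIs of all other genes per cell (horizontal axis, log scale) by cell class, WT in blue joined to KO in red; grey lines mark equal member shares. Naive-like T cells sit near the 45% line at the lowest number of other UMIs, while cycling T cells have 4478 and 5587.5 member UMIs and 14892.5 and 14405.5 others.

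Among myeloid cells, type 1 conventional dendritic cells (cDC1, which cross-present antigen; Clec9a, Irf8) had 23.95% in WT (140 cells) and 23.3% in KO (147 cells). The cycling cDC1 cluster had 22.7% and 21.9%, and cDC2 22.1% and 21.8%. Mature dendritic cells, with Fscn1 and Ccr7, had 20.4% (98 cells) and 19.1% (60 cells). Macrophages, with C1qa and Apoe, had 17.9% (74 cells) and 17.1% (71 cells), and monocytes, with Chil3 and F13a1, 16.9% (26 cells) and 17.7% (85 cells). The cDC2 cluster held 10 WT and 6 KO cells with a UMI of Siglech, a plasmacytoid dendritic cell gene, and was at 21.8% in both libraries without them. In the order of the 12 classes by share, counting intervals of neighbours overlapped for 2 pairs, both in KO: the Cd40lg/Il7r and Prf1/Xcl1 clusters, and cycling cDC1 and cDC2. The spread between cells of a class, with SDs of 3.94 to 9.26 points in WT, is far wider than these counting intervals.

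Outside these classes, natural killer cells had 34.0% (15 cells) and 29.8% (27 cells), B cells 36.4% (7 cells) and 25.8% (9 cells), and melanoma-like cells 28.3% (20 cells) and 23.4% (13 cells). These groups are small and their values are given without comparison. An unnamed cluster in which T cell and cDC1 markers met (27 cells in WT, 12 in KO) had 24.4% and 25.03%.

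The large and small subunit genes did not move by the same factor. In naive-like T cells, the UMIs of large subunit genes were 1.17 (WT) and 1.15 (KO) times those of small subunit genes. In effector T cells the ratio was 1.31 and 1.32, in cycling T cells 1.31 and 1.33, in Treg 1.36 and 1.35, and in macrophages 1.36 and 1.36. Naive-like T cells therefore had the lowest ratio of the 12 classes, followed by mature dendritic cells in WT (1.24) and the Cd40lg/Il7r cluster in KO (1.25). This ratio compares UMIs and not subunits. The 3 genes of the ribosomal stalk, the flexible arm that recruits elongation factors, made up 2.16% and 2.20% of all UMIs in naive-like T cells and 1.32% and 1.38% in effector T cells.

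Member by member, many genes were lower in effector than in naive-like T cells and few were higher. With a gene called when its CPM ratio was at least 1.5-fold and its exact conditional binomial 95% interval excluded 1, 32 of 82 measured members were lower and 1 was higher in WT, where 40.7% of all measured genes were called (32.9% higher, 7.79% lower). In KO, 37 of 82 were lower and 2 were higher, where 55.8% of all genes were called (43.5% higher, 12.3% lower). Of the members lower in 1 library, 30 were lower in both, which is 30 of 32 in WT and 30 of 37 in KO. The median member log2 ratio was -0.55 in WT and -0.54 in KO, beside 0.39 and 0.49 over all measured genes. CPM values of a class sum to a fixed total, so lower members and higher other genes are not independent. Set against the median of the other genes instead, 74 (WT) and 73 (KO) of 82 members were lower, beside 19.1% and 25.7% of all genes, and 1 and 2 were higher, beside 14.5% and 20.5%. A gene counted as measured with at least 50 CPM on either side.

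**Figure D3:**
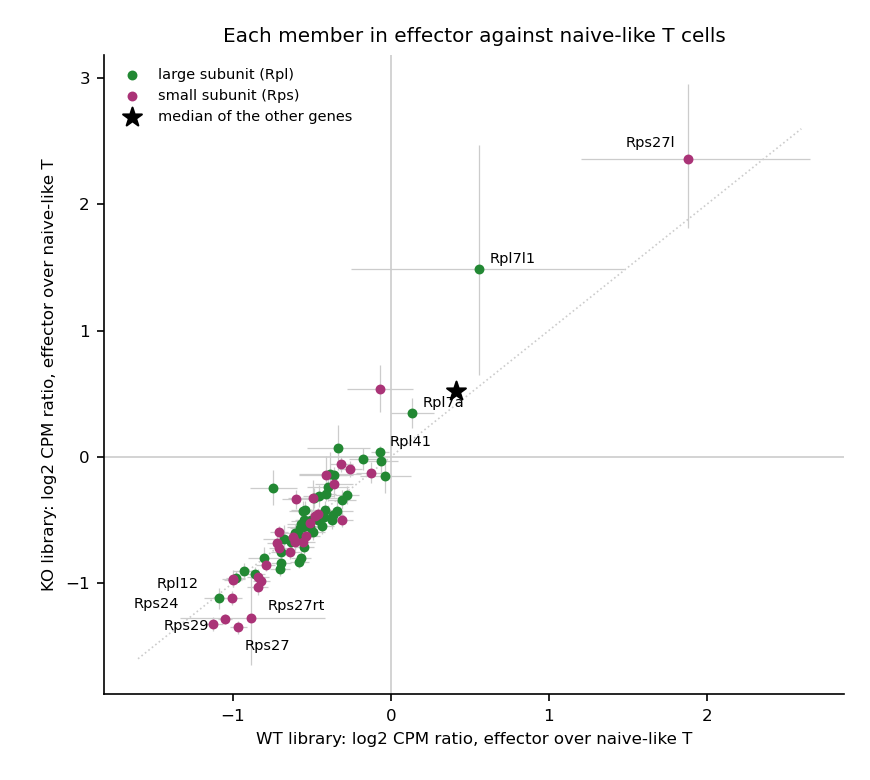
Log2 CPM ratio of effector over naive-like T cells for each measured member in the WT library (horizontal axis) and the KO library (vertical axis), with green points for large and purple points for small subunit genes and grey bars for exact 95% counting intervals; the star is the median of the other genes. Most members lie below 0 on both axes, Rps29, Rps24 and Rps27 are among the lowest, and Rps27l lies apart at 1.88 and 2.36.

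The 5 members furthest down in WT were Rps29, Rpl12, Rps24, Rps19 and Rps20, and of these all but Rpl12, a protein at the base of the stalk, belong to the small subunit. In KO Rps27 was the lowest, at 9907 CPM in naive-like and 3881 in effector cells (-1.35), beside 10103 and 5174 CPM in WT (-0.97). Rps29 had 8921 CPM in naive-like WT cells and 4096 in effector WT cells, and 8890.5 and 3549.6 CPM in KO. Its log2 ratios were -1.12 and -1.32, with ratio intervals of 0.441 to 0.479 and 0.385 to 0.414. Rps24 went from 15129 to 7308 CPM in WT and from 16519.9 to 6788 in KO (log2 ratios -1.05 and -1.28). Rpl12 went from 3242 to 1529 CPM and from 3354 to 1542 (-1.08 and -1.12). Rps19, the gene most often mutated in Diamond-Blackfan anemia, went from 7145 to 3555 CPM and from 8059 to 3707, and Rps20 from 9153 to 4582 and from 9878 to 5013. By CPM, Rps24 was the highest member in naive-like cells of both libraries, and Rpl41 in effector cells.

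At the other end, a few members held their level or were higher in effector T cells. Rpl41 had 8492 and 8396 CPM in naive-like cells and 8091 and 8624 CPM in effector cells, log2 ratios of -0.07 and 0.04. Rpl7a went from 1483 to 1631 CPM in WT and from 1408 to 1793 in KO (0.14 and 0.35). Both were short of 1.5-fold. Rpl7l1, a relative of Rpl7 with a role in ribosome assembly, was low everywhere: it went from 38.2 to 56.4 CPM in WT (ratio interval 0.841 to 2.79) and from 25.3 to 70.9 in KO (1.57 to 5.54). Rps27l was called higher in both libraries and is described with its partner below.

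Each of the 4 effector clusters was also set against the naive-like cells, with the same 82 (81 to 83) members measured. The Treg cluster had the most members lower, 65 in WT and 72 in KO (9.81% and 8.59% of all genes lower). The Gzmk cluster had 33 and 53 (6.09% and 6.88%), the Cd40lg/Il7r cluster 36 and 31 (5.45% and 5.23%), and the Prf1/Xcl1 cluster 23 and 32 (15.2% and 17.9%). Within one lineage, effector CD8 T cells had 21 and 35 members lower than naive-like CD8 T cells (7.36% and 12.6%), and effector CD4 T cells 54 and 53 lower than naive-like CD4 T cells (6.84% and 7.61%). The member counts thus lay above the share of all genes in each cluster and lineage, and CD4 T cells had more of them than CD8 T cells in both libraries.

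Genes of the stalk did not keep step with each other in mRNA. Rplp1 went from 8713 to 4410.4 CPM in WT and from 8861 to 4565 in KO (-0.98 and -0.96). Rplp2, whose product pairs with that of Rplp1, went only from 3715 to 2508 and from 3716 to 2575 (-0.57 and -0.53). Rplp0, which anchors both, had -0.55 and -0.50. The small subunit gene Rps6, whose product S6 kinase phosphorylates, had -0.36 and -0.22, and Rpl5 and Rpl11, which with 5S rRNA can bind MDM2, had -0.67 and -0.65, and -0.28 and -0.30.

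Because most members moved together, each was also given as a percent of the summed member UMIs, its place in the mix. This measure exists for members only, so no share of all genes stands beside it. For 79 members with at least 10000 UMIs, the highest and the lowest of the 24 values (12 classes in 2 libraries) differed by a median of 1.59-fold. The mix was thus narrow: 63 of the 79 stayed within 2-fold over all classes. Rps27 (3.18-fold), Rpl12 (3.13) and Rpl36al (3.00) were among the widest. Rpl27a (1.198) and Rpl23 (1.21) were among the steadiest. Below 10000 UMIs the spread was wider for Rps27l (62.2-fold), Rps19bp1 (12.6) and Rpl7l1 (8.96), of which the last 2 rest on 824 and 1531 UMIs.

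**Figure D4:**
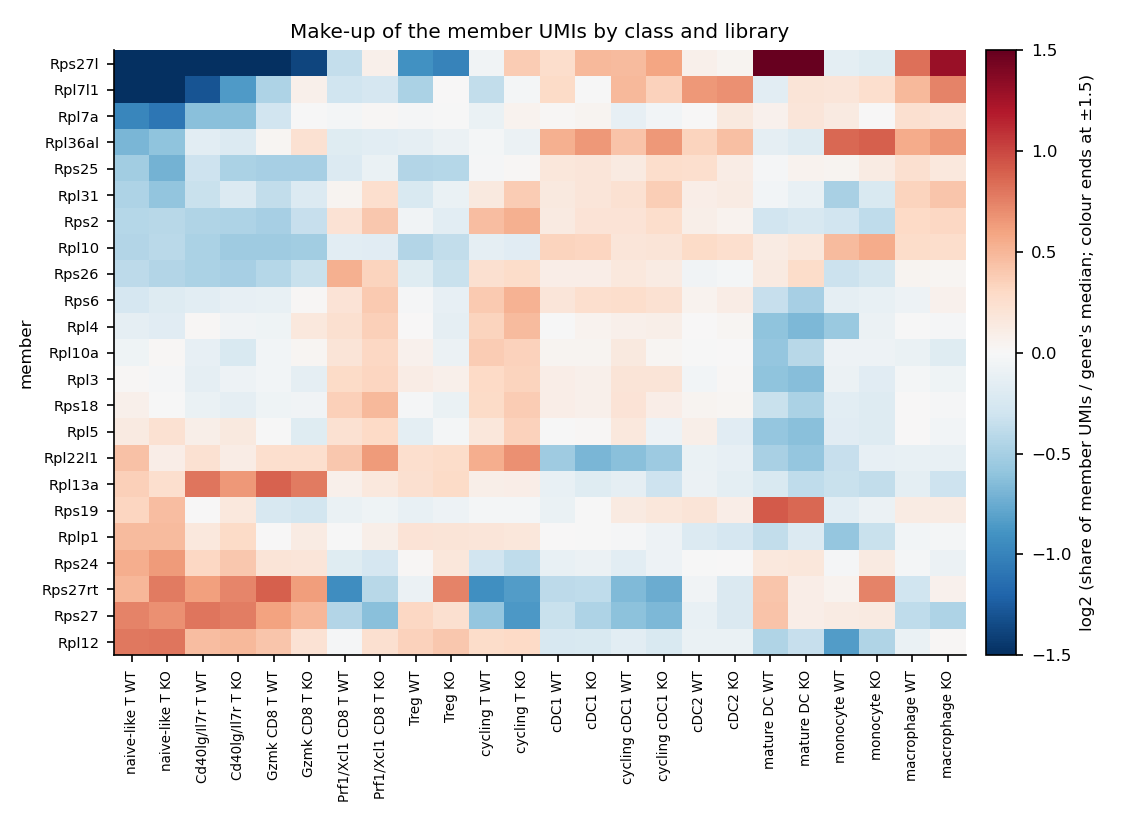
Share of the member UMIs for 23 members with a wide spread and at least 1000 UMIs (rows), by class and library (columns), as log2 over the gene's median across the columns; colour is cut at 1.5 in both directions. Rps27, Rps27rt, Rps24 and Rpl12 are high in naive-like T cells and Rps27l, Rpl7l1 and Rpl7a low, while Rps19 stands out in mature dendritic cells and Rpl36al in monocytes. Rps27 is highest in the WT Cd40lg/Il7r cluster and Rps27rt in the WT Gzmk cluster.

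Within this mix, Rps27l, Rpl7l1 and Rpl7a took at least 1.5-fold more of the member UMIs in effector than in naive-like T cells of both libraries. In log2 terms Rps27l had 2.48 and 2.99, Rpl7l1 1.16 and 2.12, and Rpl7a 0.74 and 0.98. For the effector group as a whole, Rps24 (-0.65), Rps27 (-0.72), Rps27rt (-0.65) and Rps29 (-0.70) took at least 1.5-fold less in KO alone. In WT these 4 were lower too but by less, at -0.45, -0.37, -0.29 and -0.52. In the Prf1/Xcl1 cluster, which gave more of the effector UMIs in KO, all 4 took at least 1.5-fold less in both libraries. In the Cd40lg/Il7r cluster none of the 4 did in either. The difference between the libraries was not tested.

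Cycling T cells had more members lower against naive-like T cells than effector T cells had, and more of all genes lower too. Against naive-like T cells, 47 of 82 members were lower and 1 higher in WT (58.4% of all genes called, 43.9% higher and 14.5% lower), and 43 lower and 3 higher in KO (68.1% called, 49.4% higher and 18.7% lower). Rps27, a zinc-finger protein of the small subunit, was at 10103 CPM in naive-like WT cells and 2418 in cycling WT cells, and at 9907 and 2137 in KO. That is a log2 ratio of -2.06 and -2.21. Rps24 (-1.57 and -1.68), Rps29 (-1.49 and -1.47) and Rps21 (-1.32 and -1.32) followed. Against effector T cells only 2 of 82 members, Rps27 and Rps27rt, were lower in each library. Higher were 2 members in WT and 1 in KO, with Rps27l in both, where 35.3% (WT) and 30% (KO) of all genes were called. Whether called or not, 29 of 82 members in WT and 38 of 82 in KO lay above 0, beside 53.1% and 53.4% of all genes. Rps2 had 5835 CPM in cycling WT cells and 6572 in cycling KO cells, above its naive-like levels of 5242 and 5415 and its effector levels of 4215 and 5195. Between cycling and other cDC1, no member was called, while 26% and 21.2% of all genes were.

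Sequence at the start of these genes was set beside the levels, since the TOP motif lies there. The RefSeq table of starts (build GRCm38.p6) held 66 of the 87 members. A run of at least 6 bases that are all C or T and begins with C, with its first base within 20 bases of an annotated start, was looked for on the transcribed strand only. It was found at 43 of 66 members (65.2%) and at 9723 of 27025 genes in the table (35.98%). Runs of at least 10 bases were found at 10 members (15.2%) and 958 genes (3.54%). The 30 bases around the start (10 before and 20 from the start on) are shown for members whose share of the mix was lower (Rps27, Rps24, Rpl12, Rps21) or higher (Rps27l, Rpl7a, Rps2, Rpl7l1) in cycling than in naive-like T cells. Capitals mark the run, counted from the C nearest the annotated start, so pyrimidines before it stay in lower case.
Rps27, chr3:90213629-90213658, minus strand: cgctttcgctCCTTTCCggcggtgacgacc
Rps24, chr14:24490668-24490697, plus strand: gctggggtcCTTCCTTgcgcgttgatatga
Rpl12, chr2:32961702-32961731, plus strand: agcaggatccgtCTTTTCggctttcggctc
Rps21, chr2:180257369-180257398, plus strand: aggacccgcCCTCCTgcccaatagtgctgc
Rps27l, chr9:66946076-66946105, plus strand: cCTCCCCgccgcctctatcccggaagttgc
Rpl7a, chr2:26910797-26910826, plus strand: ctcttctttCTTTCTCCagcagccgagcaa
Rps2, chr17:24720053-24720082, plus strand: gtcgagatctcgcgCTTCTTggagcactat
Rpl7l1, chr17:46782637-46782666, minus strand: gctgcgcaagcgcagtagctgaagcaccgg
In Rps27 the run starts at the annotated first base, and in Rps24 1 base before it. Rpl7l1 has no such run in this window, and that of Rps27l lies before the annotated start, 9 bases upstream of it. Rps21, Rps24 and Rps27l each have a second annotated start, not shown. Members on both sides of the change hold a run, so these letters alone do not separate them.

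Rps27l and Rps27 are 2 genes for nearly the same protein, and which of them a cell used varied more between classes than the place of any other member in the mix. Rps27 lies on chromosome 3 (90212522 to 90213651, minus strand, GRCm38, GENCODE vM21) and Rps27l, a known target of p53, on chromosome 9 (66946086 to 66949516, plus strand). Their coding sequences are both 252 bases long (84 codons) and differ at 60 bases, 53 of them bases in the last place of a codon, an identity of 76.2%. They are shown because reads of the coding part are told apart by such differences alone. Capitals in Rps27l mark the bases that differ from Rps27.
Rps27: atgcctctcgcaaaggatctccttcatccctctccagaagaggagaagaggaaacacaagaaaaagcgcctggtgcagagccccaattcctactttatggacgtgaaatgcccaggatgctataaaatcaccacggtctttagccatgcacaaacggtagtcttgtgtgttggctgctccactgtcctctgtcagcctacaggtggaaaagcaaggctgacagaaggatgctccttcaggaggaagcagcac
Rps27l: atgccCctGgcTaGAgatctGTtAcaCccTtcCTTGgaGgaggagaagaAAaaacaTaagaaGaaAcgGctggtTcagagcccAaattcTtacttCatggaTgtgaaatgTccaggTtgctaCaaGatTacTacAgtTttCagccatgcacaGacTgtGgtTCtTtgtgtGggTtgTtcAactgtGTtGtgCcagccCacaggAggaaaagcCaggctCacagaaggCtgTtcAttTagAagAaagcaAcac
Another gene, Rps27rt, a retrogene copy, lies on chromosome 9 (114982366 to 114982739, minus strand), and its coding sequence is identical to that of Rps27. Reads from the coding part of these 2 cannot be told apart, so Rps27 and Rps27rt values are uncertain as a split. Rps27rt counts were small, with 56 UMIs beside 3699 of Rps27 in naive-like WT cells.

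In naive-like T cells almost all of the pair was Rps27. Rps27l made up 0.484% of the UMIs of both in WT (18 UMIs, exact 95% interval 0.287 to 0.764) and 0.591% in KO (28 UMIs, 0.393 to 0.854). In the Cd40lg/Il7r cluster it was 1.46% and 1.55%, and in the Gzmk cluster 1.57% and 2.57%. It was 9.28% (7.95 to 10.7) and 13.5% (12.5 to 14.6) in the Prf1/Xcl1 cluster, and 12.2% (10.9 to 13.7) and 18.5% (17.2 to 19.8) in cycling T cells. T cells thus covered a wide range, with the naive-like, Cd40lg/Il7r and Gzmk clusters low and the Prf1/Xcl1 and cycling clusters high. Treg had 3.97% and 3.92%.

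As a share of the pair, Rps27l was higher in every myeloid class than in the naive-like, Cd40lg/Il7r, Gzmk and Treg clusters. Monocytes lay below the Prf1/Xcl1 and cycling T clusters in both libraries. The share of the pair was 23.9% (22.6 to 25.2) in WT and 32.2% (30.2 to 34.1) in KO mature dendritic cells, the highest of the 12 classes. Macrophages had 18.1% and 24.4%, cDC1 12.7% and 15.7%, cycling cDC1 17.0% and 18.8%, cDC2 9.88% and 10.3%, and monocytes 7.43% and 7.18%. As a level, Rps27l reached 1208 and 1366 CPM in mature dendritic cells, against 49.2 and 58.9 CPM in naive-like T cells. Against effector T cells, its CPM was called higher in mature dendritic cells and macrophages of both libraries. In cDC1 and cDC2 that held in WT only, and in monocytes in neither library (shares of all genes called are given below). After thinning all cells to 2000 UMIs, a UMI of Rps27l was seen in 13.3% and 13.0% of naive-like T cells and in 71.4% and 82.1% of mature dendritic cells. In cycling T cells it was 57.9% and 56.9%, and in the Prf1/Xcl1 cluster 28.1% (9 of 32 cells) and 48.9% (43 of 88). Without thinning, the naive-like shares were 16.5% and 20.1%. At equal depth naive-like T cells thus still lay far below cycling T cells and mature dendritic cells. They did not lie below the other low clusters: the Gzmk cluster had 7.69% and 13.2%, and the Cd40lg/Il7r cluster 15.9% and 15.3%. What part of the low naive-like share comes from free RNA in the droplets was not tested.

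**Figure D5:**
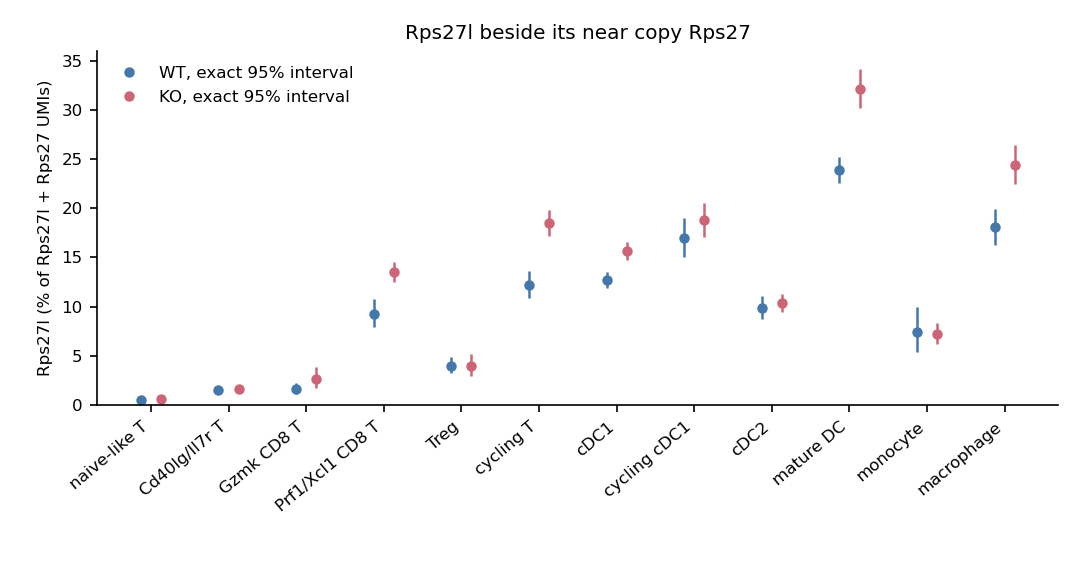
Rps27l as a percent of the UMIs of Rps27l plus Rps27 (vertical axis) by cell class, WT in blue and KO in red, with exact binomial 95% intervals for counting error. Values run from 0.484% in naive-like WT T cells to 32.2% in KO mature dendritic cells, and KO lies above WT by more than the intervals in the Prf1/Xcl1, cycling T, cDC1, mature dendritic and macrophage classes.

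The other second copies behaved in different ways. Rpl22l1, a partner of Rpl22 in T cell development, was 34.0% and 28.7% of its pair in naive-like T cells and 31.2% and 34.9% in cycling T cells, but 16.5% and 14.7% in cDC1 and 18.5% and 16.7% in mature dendritic cells. It reached 54.7% and 59.7% in melanoma-like cells. Rpl36al was 25.7% and 25.8% of the Rpl36a pair in naive-like T cells, 37.0% and 35.4% in effector T cells and 60.5% and 59.7% in monocytes. The CPM of Rpl36al hardly moved there (1019 and 1103 in naive-like T cells, 1174 and 1264 in monocytes), while Rpl36a went from 2953 and 3171 to 766 and 852 CPM. Rpl7l1 was a minor partner of Rpl7 throughout, from 1.35% and 0.847% in naive-like T cells to 6.53% and 7.37% in macrophages and 6.96% and 7.24% in cDC2. Coding sequences of Rpl36a and Rpl36al, both 318 bases, differ at 39 bases.

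Myeloid classes were then set against effector T cells. In macrophages 51 of 82 measured members were lower and 1 higher in WT (52.9% of all genes called, 27.7% lower), and 60 of 83 lower and 2 higher in KO (54% called, 28.5% lower). Monocytes had 63 and 59 lower and none higher (49.7% and 60.7% called, 22.3% and 30.8% lower). Mature dendritic cells had 31 and 42 lower (62.5% and 65.7% called, 38.5% and 40.7% lower), close to the share of all genes in WT. In cDC1 8 and 8 of 82 were lower (55.1% and 50.4% called, 34.4% and 30.5% lower), and in cDC2 10 and 15 (48.6% and 48.6% called, 25.6% and 26.2% lower). Median log2 ratios of the members were -0.66 and -0.72 in macrophages, -0.73 and -0.68 in monocytes, -0.50 and -0.59 in mature dendritic cells, -0.38 and -0.42 in cDC2 and -0.23 and -0.26 in cDC1. The same median over all genes was -0.10 and -0.12 in macrophages but -0.24 and -0.23 in cDC1, so in cDC1 the medians of members and of all genes were close.

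The same names recurred at the low end of the myeloid classes. All were set against the same effector T cells of their library, so these comparisons are not independent of each other. Rpl13a, which can leave the ribosome to silence inflammatory mRNAs, had 3712 and 3282 CPM in effector T cells, 1479.6 and 1271 in macrophages, 1228 and 1260.1 in monocytes and 1596 and 1342 in mature dendritic cells. Rps15a had 7105 and 7045 CPM in effector T cells and 2887 and 2826 in macrophages. Together with Rpl12 and Rpl22l1, both were called lower in each of the 5 non-cycling myeloid classes and in both libraries. Rpl12 had 413 and 567 CPM in monocytes beside 1529 and 1542 in effector T cells. Rpl10 and Rpl36al went the other way within the mix: Rpl10 was at 2222 and 2379 CPM in effector T cells and 2393 and 2658 in monocytes, where most other members were lower. In mature dendritic cells Rps19 was at 5166 and 4632 CPM, above effector T cells (3555 and 3707), while Rpl5 was down to 483 and 435 CPM from 1043 and 1154.

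Between KO and WT the summed members differed by under 2 points in CD8 T cells and in CD4 T cells, with opposite signs. CD8 T cells (172 WT and 184 KO cells) had 32.4% and 30.7%, a difference of -1.74 points (-1.89 to -1.596 from counting). CD4 T cells had 27.1% and 28.3%, a difference of 1.25 points in the opposite direction. The median CD8 T cell had 31.9% in WT (quartiles 27.04 and 38.5) and 30.5% in KO (25.99 and 37.4), and the quartiles overlap. T cells with neither co-receptor UMI differed more, at 27.9% and 32.3%, and their make-up of clusters was not matched. With 1 library a group, differences of this size cannot be told apart from differences between libraries or tumors.

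The CD8 T cell difference moved with how the cells were taken and with the mix of clusters. It was -1.08 points as a mean over cells and -1.15 with cells thinned to 2000 UMIs. With all cells of the naive-like, Gzmk, Prf1/Xcl1 and cycling clusters in place of cells with a CD8 UMI, which adds CD4 T cells, it was -0.266. The Prf1/Xcl1 cluster gave 30.3% of the CD8 T cell UMIs in WT and 51.9% in KO, and the naive-like cluster 15.5% and 8.95%. With the KO clusters weighted as in WT, the KO share was 31.4% and the difference -1.06 points. Within clusters it was 0.984 points in naive-like CD8 T cells, -1.37 in the Prf1/Xcl1 cluster, -3.01 in the Gzmk cluster and -0.249 in the cycling cluster. The sign therefore depended on the cluster.

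Of 82 measured members, 1 was higher and 1 lower in KO than in WT CD8 T cells, where 11.8% of all genes were called (6.43% higher, 5.4% lower). Rps27l was higher in KO, at 417 CPM (841 UMIs) against 238 CPM (296 UMIs), a log2 ratio of 0.81. Rps27 was lower, at 3349 against 5095 CPM (-0.61). The Rps27 call was lost when CPM was averaged over cells and when CD8 T cells were taken by cluster, while that of Rps27l held under both. Rps2 (0.19), Rps21 (-0.32) and Rps29 (-0.29) were short of 1.5-fold. Both genes also differed between naive-like and cycling T cells, and KO CD8 T cells held more of the Prf1/Xcl1 and cycling clusters. Within the Prf1/Xcl1 cluster the log2 ratio of Rps27l was 0.33 and that of Rps27 -0.28, both short of the call.

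Effector CD8 T cells alone gave the same 2 calls, with Rps27l at 0.82 and Rps27 at -0.65 (17.1% of all genes called). Their mix of clusters differed as well. Of 113 cells in each library, 26 in WT and 62 in KO were of the Prf1/Xcl1 cluster, and 65 and 36 of the Gzmk cluster. Neither gene was called within either of these clusters, but in the Gzmk cluster Rps27l had only 29 UMIs in WT and 24 in KO. The part of the mix in the calls was not tested here either. In CD4 T cells no member was called (9.97% of all genes), nor in naive-like T cells (8%), cDC1 (4.69%), cDC2 (11%), mature dendritic cells (9.03%), monocytes (8.49%), cycling cDC1 (7.48%), cycling T cells (11%), Treg (10%), the Gzmk cluster (6.31%) or the Cd40lg/Il7r cluster (7.7%). Rps27l was at 266 CPM in KO and 198 in WT CD4 T cells, a log2 ratio of 0.43. In effector T cells as a whole Rps27l was called (0.73, 7.91% of all genes), where 32 of 351 WT and 89 of 322 KO cells were of the Prf1/Xcl1 cluster. Whether called or not, CPM was above WT in KO for 2 of 82 members in Treg (56.4% of all genes), 13 of 82 in the Gzmk cluster (56.3%) and 27 of 82 in CD8 T cells (60.3%), and for 67 of 82 in CD4 T cells (47.6%). In cycling T cells it was 73 of 81 members (50.97% of all genes), where the summed antigen-presenting cell markers were also apart, at 5999 CPM in WT and 1001 in KO, and their part in this was not tested. The remaining calls were of Rps19bp1, the gene that is no ribosomal protein: 52.0 against 21.0 CPM in the Prf1/Xcl1 cluster (73 and 10 UMIs, 9.17% of all genes called) and 72.5 against 32.6 CPM in macrophages (59 and 24 UMIs, 13.3% called).

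Genes of other cell types moved with some of these contrasts. The summed level of 5 antigen-presenting cell markers was 46.4 and 27.4 CPM in naive-like T cells, 614 and 545 in effector T cells, and 5999 and 1001 in cycling T cells. In CD8 T cells it was 995 CPM in WT and 261 in KO. Of 7 macrophage markers, 6 and 5 were at 0 in naive-like T cells, among them C1qa, C1qb and C1qc. Without the T cells in which such antigen-presenting cell UMIs were over 0.5%, the effector minus naive-like differences were -14.6 and -15.5 points, and that of KO and WT CD8 T cells -1.84. Mitochondrial UMIs were 3.22% and 3.30% in the median naive-like cell and 2.25% and 2.12% in the median effector cell.

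Other parts of the translation machinery were counted by the same call. Of 77 genes of the mitochondrial ribosome, 41 were measured in WT and 50 in KO between effector and naive-like T cells. Of these, 21 and 31 were higher and 1 and 0 lower, with median log2 ratios of 0.82 and 0.83, where the cytosolic members had -0.55 and -0.54. Ribosome biogenesis genes, which process rRNA, had 1 higher and 1 lower of 12 in WT and 7 higher of 15 in KO, among them Ncl, Nhp2 and Gar1, beside 32.9% and 43.5% of all genes higher. In cycling against naive-like T cells 3 of 15 and 12 of 17 were higher, beside 43.9% and 49.4% of all genes, so the WT count lay below the share of all genes. Translation factors had 4 higher and 2 lower of 32 in WT and 11 higher and 1 lower in KO, below the share of all genes higher, with Eif4a2 lower and Eif5a higher in both. Of 16 other TOP mRNAs, which share the motif but encode no ribosomal protein, 1 and 2 were higher and 2 and 1 lower, with medians of -0.03 and -0.10, below all genes (0.39 and 0.49) but above the members. Tpt1 was lower in both libraries and Vim higher. Of the mTORC1, S6 kinase and Myc genes, 5 of 14 were measured, and Myc and Rps6ka1 were higher in both. Mitochondrially encoded mRNAs were lower for 5 and 8 of 13, beside 7.79% and 12.3% of all genes. Their medians of -0.54 and -0.69 were near that of the members in WT and below it in KO.

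In macrophages against effector T cells the other TOP mRNAs went down with the members: 13 of 16 were lower in each library, beside 27.7% and 28.5% of all genes. Among them were Eef1a1, Eef2, Npm1 and Pabpc1. The medians of the list were -0.66 and -0.85, and Vim, a cytoskeletal gene, was higher. In mature dendritic cells biogenesis genes were lower still, 8 of 10 in WT and 14 of 15 in KO, beside 38.5% and 40.7% of all genes. Their medians were -1.25 and -1.90. Between KO and WT CD8 T cells, 5 of 18 biogenesis genes (Dkc1, Gar1, Nhp2, Nob1 and Nop16) were higher and none lower, where 6.43% of all genes were higher, with a median of 0.45 beside 0.09 for all genes and -0.05 for the members. CD4 T cells had 3 of 16 higher (Gar1, Nhp2 and Nop16) and none lower, where 9.97% of all genes were called. Their median was 0.44 beside -0.02 for all genes, while in Treg it was -0.21 with none of 10 called. The CD8 T cell result varied between clusters: in naive-like CD8 T cells none of 16 was higher and 3 (Gnl3, Ncl and Nolc1) were lower. In the Gzmk cluster 3 of 11 were higher and 1 lower, where 6.31% of all genes were called in either direction. In the Prf1/Xcl1 cluster 1 of 19 was higher (9.17% called), with a median of 0.40. Effector CD8 T cells had 8 of 18 higher (17.1% called) and cycling T cells 9 of 18 (11% called), with medians of 0.55 and 0.59. None was lower in these last groups. Of 54 mitochondrial ribosome genes 6 were higher and none lower in CD8 T cells, beside the same 6.43% of all genes.

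Over the 12 classes in 2 libraries (24 points, 2592 genes), the genes whose CPM followed the summed members most closely were Gm9493, with a Pearson correlation of 0.97, the elongation factor Eef1a1 (0.97), and the mitochondrial transcripts mt-Atp8 (0.91), mt-Co3 (0.91) and mt-Cytb (0.90). The points share 2 libraries and sum to the same total, so this is a description. Eef1a1 ran from 5688 to 13996 CPM over the classes.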

How the data were processed

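Single-cell mRNA of 1 WT and 1 KO library was counted as UMIs. The values deposited by the authors are UMI counts for each gene in each cell, not normalized, made with Cell Ranger 1.3 on mm10 per the submitters' processing notes, while the file headers name software version 3.0.2. Cells with at least 500 UMIs, 300 genes and at most 10% mitochondrial UMIs were kept, and 5 WT and 3 KO doublet calls (0.506% and 0.276%) of scanpy's Scrublet were left out. A doublet caller that marks so few cells may miss others. Cells of both libraries were clustered together with scanpy 1.11.5 (2000 variable genes without the members, 30 components, 15 neighbours, Leiden resolution 1). Clusters were named from fixed marker lists with a marker counted in at least 25% of cells. UMIs were summed per class and library. Ratios with exact 95% intervals, at least 50 CPM and 1.5-fold made a call, and the script was tested on simulated data. With 1 library a group no p-value was computed.

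Genes were named by rule: the 5 with most UMIs, second copies and their partners, the members furthest apart in each comparison, and stalk and other well-known members. Rpl6l, Rpl23 and Rpl27a were added after their values were seen. Members and lists were chosen with earlier results of these data known. Results of some genes are not reported here. Shares of cells with a UMI were compared after thinning to 2000 UMIs. Gene positions and coding sequence came from GENCODE vM21 tables and start windows from RefSeq. Alternatives changed the cell filter, clustering, doublets, depth, denominator, scaling and minimum level.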

Additional observations from a re-analysis of the deposited data

Results flagged for a closer look

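The KO minus WT difference in the member share had no single sign over the 12 classes. It was above 0 in naive-like T cells (0.960 points), the Cd40lg/Il7r cluster (1.18), cycling T cells (1.90) and monocytes (0.852). It was below 0 in the Gzmk cluster (-2.41 points), the Prf1/Xcl1 cluster (-2.09), Treg (-2.99), cDC1 (-0.653), cycling cDC1 (-0.761), cDC2 (-0.284), mature dendritic cells (-1.29) and macrophages (-0.774). The difference between classes was not tested, since each rests on 1 library a group.

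UMIs also fell on 16 pseudogene rows with "-ps" in the symbol, which the member rule leaves out: 281 CPM in WT and 304 CPM in KO. Rps26-ps1 (744 and 1061 UMIs) and Rps12-ps3 (686 and 1004 UMIs) held the most. Whether these UMIs belong to the parent genes was not tested.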

How the results depend on the processing

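The effector minus naive-like difference kept its sign under every setting run. In WT it was -15.8 points as a mean over cells, -15.3 without mitochondrial UMIs, -14.0005 with members among the clustering genes, -15.8 and -16.2 at resolutions 0.5 and 2, -15.7 with doublet calls kept, -15.1 without the deepest cell and -15.4 thinned. In KO the same settings gave -16.3, -16.4, -15.2, -15.9, -15.8 and -16.0 (doublet calls kept), and -16.4 thinned, and -15.1 with at least 1000 UMIs and at most 5% mitochondrial UMIs. In each library 2 other settings left it within counting error. Members called numbered 33 in WT and 39 in KO, 54 in WT from means over cells, and 75 and 75 when scaled by the median of the other genes, which by construction moves the zero point. The KO minus WT difference in CD8 T cells was -1.08 as a mean over cells, -0.266 with all cells of the 4 clusters richer in CD8 than CD4 cells, -1.97 without cycling cells and -1.15 thinned. Settings added after the data were seen gave 0.984 in naive-like CD8 T cells alone, where the sign turned, -1.37 in the Prf1/Xcl1 cluster, -3.01 in the Gzmk cluster, -0.249 in the cycling cluster, and -1.06 at WT cluster weights. Of the 2 members called there, 1 (Rps27l) was called from means over cells and by cluster, where the Rps27 call was lost. In CD8 T cells of the Prf1/Xcl1 cluster both were lost and 1 other, Rps19bp1, was called, and 0 were called in the naive-like, Gzmk and cycling clusters. Of the other settings, 8 left the CD8 difference within counting error and 12, 10 and 11 left the counts within 1.5 times. The causes were not tested. No paired analysis was possible because each group has 1 library. Depth limits genes under 50 CPM and classes of few cells, and counting intervals do not cover differences between tumors or libraries.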
